A study of Mus musculus with 1 sample.

Results

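The 10 genes described here belong to fibroblast growth factor (FGF) signalling and were taken by gene symbol from the 27998 genes listed for the library. They were 2 ligands (Fgf2 and Fgf8), 3 receptors (Fgfr1, Fgfr2 and Fgfr3) and 5 feedback genes of the ERK cascade (Dusp6, Spry2, Spry4, Phlda1 and Spred1). All 10 had at least 1 UMI, a unique molecular identifier that counts a captured transcript once.

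The cells came from wild-type C57BL/6 mice at postnatal day 8. Testes of 3 mice were dissociated, spermatogonia carrying the surface protein THY1 were enriched on magnetic beads, some unselected testis cells were added back, and the cells of the 3 mice were pooled into 1 droplet library. The shares of cell types therefore reflect this mixture, and cells of a single mouse cannot be told apart. A library of Zscan2 knockout cells was not analysed here, so all comparisons are between cell classes within 1 library, cells are not replicates, and no test was made.

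In FGF signalling a secreted ligand, held near the cell by heparan sulfate, binds a receptor tyrosine kinase and activates the RAS, RAF, MEK and ERK cascade. Active ERK phosphorylates transcription factors of the ETS family, and these raise transcription of inhibitors that damp the same cascade. FGF2 is routinely added together with GDNF to cultures of spermatogonial stem cells (SSCs), and GDNF, acting through the receptor pair GFRA1 and RET, can reach the same ERK cascade. Feedback transcripts such as Dusp6 and Spry4 are therefore used as readouts of ERK activity in many tissues, whichever receptor was engaged.

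The library held 970 barcodes, all distinct, with 2655 to 44915 UMIs each (median 9115). After filtering, 920 cells remained in 8 classes named from marker genes. The germ cells were 112 SSC-like cells with a median of 22293 UMIs, 79 progenitor-like cells (19446) and 133 differentiating-like cells (10878). The somatic cells were 255 Sertoli-like cells with a median of 8343 UMIs, 186 stromal-like cells (8370.5), 94 of the peritubular myoid-like class (7446), 35 macrophage-like cells (13010) and 26 T cell-like cells (5961). The 10 FGF genes were kept out of the variable genes used for clustering, so they did not shape the classes directly. The differentiating-like class joined 2 clusters, 1 of 101 cells with Kit and Stra8 among its 10 leading genes and 1 of 32 cells led by Prss50, Ly6k and Esx1.

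The markers of each class summed to their highest level in the class named after them. The same markers gave the names, so this describes the naming. Germ cell markers summed to 1237 to 1515 CPM (UMIs per 1000000 UMIs of the class) in the germ classes. In somatic classes they summed to at most 72.7 CPM. Sertoli cell markers summed to 4396 CPM in Sertoli-like cells. Progenitor markers summed to 727 CPM in progenitor-like and 509 CPM in Sertoli-like cells. Differentiating markers summed to 836, 1101 and 2415 CPM over the SSC-like, progenitor-like and differentiating-like classes. No class was named for Leydig or endothelial cells, whose markers reached 448 CPM in stromal-like and 376 CPM in T cell-like cells. Mitochondrial genes gave 6.11 to 7.19% of UMIs in germ classes and 3.00 to 6.14% in somatic classes.

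Classes differed in more than their names, and 3 facts bear on the values that follow. The T cell-like class was a mixture: with 10 in place of 14 principal components, 13 of its cells formed a T cell-like cluster, 12 joined the peritubular myoid-like cells and 1 joined the stromal-like cells. The progenitor-like class held a barcode rich in hemoglobin UMIs, and the 6 red blood cell markers summed to 7116 CPM there against 95.7 CPM in SSC-like cells. Etv5, an ETS factor gene, was on the list of 6 markers that named SSC-like cells, and without Etv5, Bcl6b and Lhx1 on that list no cluster received the name.

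Levels are given as CPM, with exact Poisson 95% intervals. Ratios between classes are on the log2 scale with exact conditional binomial 95% intervals, and shares of cells have exact binomial intervals. All of these cover counting error only. A gene was counted as past 2-fold when its ratio was at least 2, or at most its inverse, with at least 50 UMIs in both classes together. CPM were compared between classes for the same gene, not between genes, since genes differ in how well they are captured.

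Ligands were the most thinly sampled group. Fgf2, the FGF used in SSC culture, gave 57 UMIs in all kept cells and was found mainly in the stromal-like and peritubular myoid-like classes. Its level was 27.0 CPM (interval 16.5 to 41.7) in peritubular myoid-like cells, 16.4 CPM (10.8 to 23.9) in stromal-like cells and 6.06 CPM in T cell-like cells from a single UMI. It was 1.94 CPM in macrophage-like, 1.23 in SSC-like, 1.2 in differentiating-like, 0.871 in Sertoli-like and 0.691 in progenitor-like cells, each from at most 3 UMIs. The 2 leading classes were not separated from each other, with a log2 ratio of -0.72 (-1.60 to 0.20) for stromal-like over peritubular myoid-like cells.

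Fgf2 was thus lower in germ than in somatic cells, with 6 against 51 UMIs and a log2 ratio of -3.14 (-4.65 to -1.92). After every cell was thinned to 5000 UMIs, 13.3% of 90 peritubular myoid-like and 8.72% of 172 stromal-like cells had an Fgf2 UMI, against 0 of 235 Sertoli-like cells (interval up to 1.56%) whose median depth was close to that of the stromal-like cells. Unthinned, the shares were 18.1%, 14.5% and 0.784%. Fgf2 lies on chr3:37348346-37410108 of GRCm38 on the plus strand and is overlapped by Nudt6, Fgf2os and Gm42923 on the other strand and by Gm43439 on its own. Whether the counting used the strand is not given in the sources used here. Nudt6 was at 26.8 CPM in germ and 7.65 CPM in somatic cells, and the part of overlapping genes in the Fgf2 counts was not tested.

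Fgf8, a ligand best known from embryonic patterning, was nearly confined to germ cells in this library, with 19 of its 20 UMIs there. Progenitor-like cells had 5.53 CPM (2.39 to 10.9) from 8 UMIs, differentiating-like cells 4.21 CPM (1.69 to 8.67) from 7 UMIs and SSC-like cells 1.64 CPM (0.446 to 4.19) from 4 UMIs. The only somatic UMI was in a stromal-like cell. For germ over somatic cells the log2 ratio was 4.20 (1.54 to 9.57), from 19 against 1 UMIs. The germ stages were not separated, since SSC-like over progenitor-like cells gave -1.76 (-3.94 to 0.14). All 7 UMIs of the differentiating-like class were in its cluster of 101 cells. In the other somatic classes no UMI was seen, which in 255 Sertoli-like cells allows a share of cells with a UMI of up to 1.44%, and in 94 peritubular myoid-like cells up to 3.85%. The gene occupies chr19:45736798-45742915 on the minus strand and overlaps no annotated gene.

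Among the receptors, Fgfr1 differed widely between somatic types. Fgfr1, the receptor with most UMIs here (326), was at 85.1 CPM (65.4 to 109) in the peritubular myoid-like class and 78.0 CPM (65.0 to 92.7) in the stromal-like class. Differentiating-like cells had 24.6 CPM (17.7 to 33.4), SSC-like cells 23.3 CPM (17.7 to 30.2) and progenitor-like cells 16.6 CPM (10.6 to 24.7). Macrophage-like cells had 13.6 CPM (5.45 to 27.9), T cell-like cells 6.06 CPM from 1 UMI, and Sertoli-like cells 2.18 CPM (0.707 to 5.08) from 5 UMIs. The T cell-like UMI was in the 1 cell that joined the stromal-like cells with 10 principal components. In the order of levels the single step between neighbours that exceeded counting error was that from stromal-like to differentiating-like cells, with a log2 ratio of 1.66 (1.14 to 2.21).

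Sertoli-like cells, the nurse cells of the tubule, were therefore the low class for Fgfr1. Sertoli-like over stromal-like cells gave a log2 ratio of -5.16 (-6.81 to -3.90), and Sertoli-like over peritubular myoid-like cells -5.29 (-6.96 to -3.99). At 5000 UMIs per cell, an Fgfr1 UMI was found in 39.0% and 34.4% of stromal-like and peritubular myoid-like cells, against 1 of 235 Sertoli-like cells (0.426%). Unthinned, the shares were 52.7%, 46.8% and 1.96%, at like median depths.

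Among germ stages no Fgfr1 ratio exceeded counting error. SSC-like over progenitor-like cells gave 0.49 (-0.22 to 1.24), SSC-like over differentiating-like cells -0.08 (-0.68 to 0.54) and progenitor-like over differentiating-like cells -0.57 (-1.36 to 0.19). The thinned shares of 11.8%, 9.72% and 5.15% in these stages leaned towards SSC-like cells while the CPM did not, so no order was read from them. After thinning, which leaves fewer UMIs and drops the shallowest cells, the log2 ratio for SSC-like over differentiating-like cells was 1.2. Fgfr1 lies on chr8:25513654-25575718 on the plus strand and, like Fgfr3 and Phlda1, is overlapped by 1 annotated gene on the other strand, with which reads cannot be told apart if the counting ignored strand.

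Fgfr2 and Fgfr3 had few UMIs and germ over somatic log2 ratios of opposite sign. Fgfr2, whose splice forms serve epithelial and mesenchymal cells, gave 27 UMIs in stromal-like cells (16.4 CPM, 10.8 to 23.9) and 12 in peritubular myoid-like cells (16.2 CPM, 8.37 to 28.3), and its level did not differ between them by more than counting error (log2 ratio 0.02, -1.01 to 1.14). It had 3 UMIs in SSC-like cells, 1 in progenitor-like cells and none in the other 4 classes. In the annotation used for positions, the longest form of Fgfr2 runs across 36 genes on its own strand and 33 on the other, so its counts are less certain. The 2295655 UMIs of the Sertoli-like cells held none of Fgfr2. With a floor of 3 UMIs in its place the log2 ratio to stromal-like cells was -3.65, and the exact interval reached up to -3.26. Fgfr3 gave 16 UMIs in germ cells (2.88 CPM) and 5 in somatic cells (0.933 CPM), a log2 ratio of 1.63 (0.11 to 3.43). Of these germ UMIs 9 were in differentiating-like cells (5.41 CPM, 2.47 to 10.3), 4 in progenitor-like and 3 in SSC-like cells, and SSC-like over differentiating-like cells gave -2.14 (-4.66 to -0.14). Within the differentiating-like class, 5 of the 9 UMIs were in the cluster of 32 cells (12.3 CPM, 4.0 to 28.7) and 4 in that of 101 cells (3.18 CPM, 0.867 to 8.14), which were not separated (log2 ratio of the larger over the smaller cluster -1.95, -4.29 to 0.26). With 21 UMIs in all, Fgfr3 had too few for the 2-fold count.

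**Figure D1:**
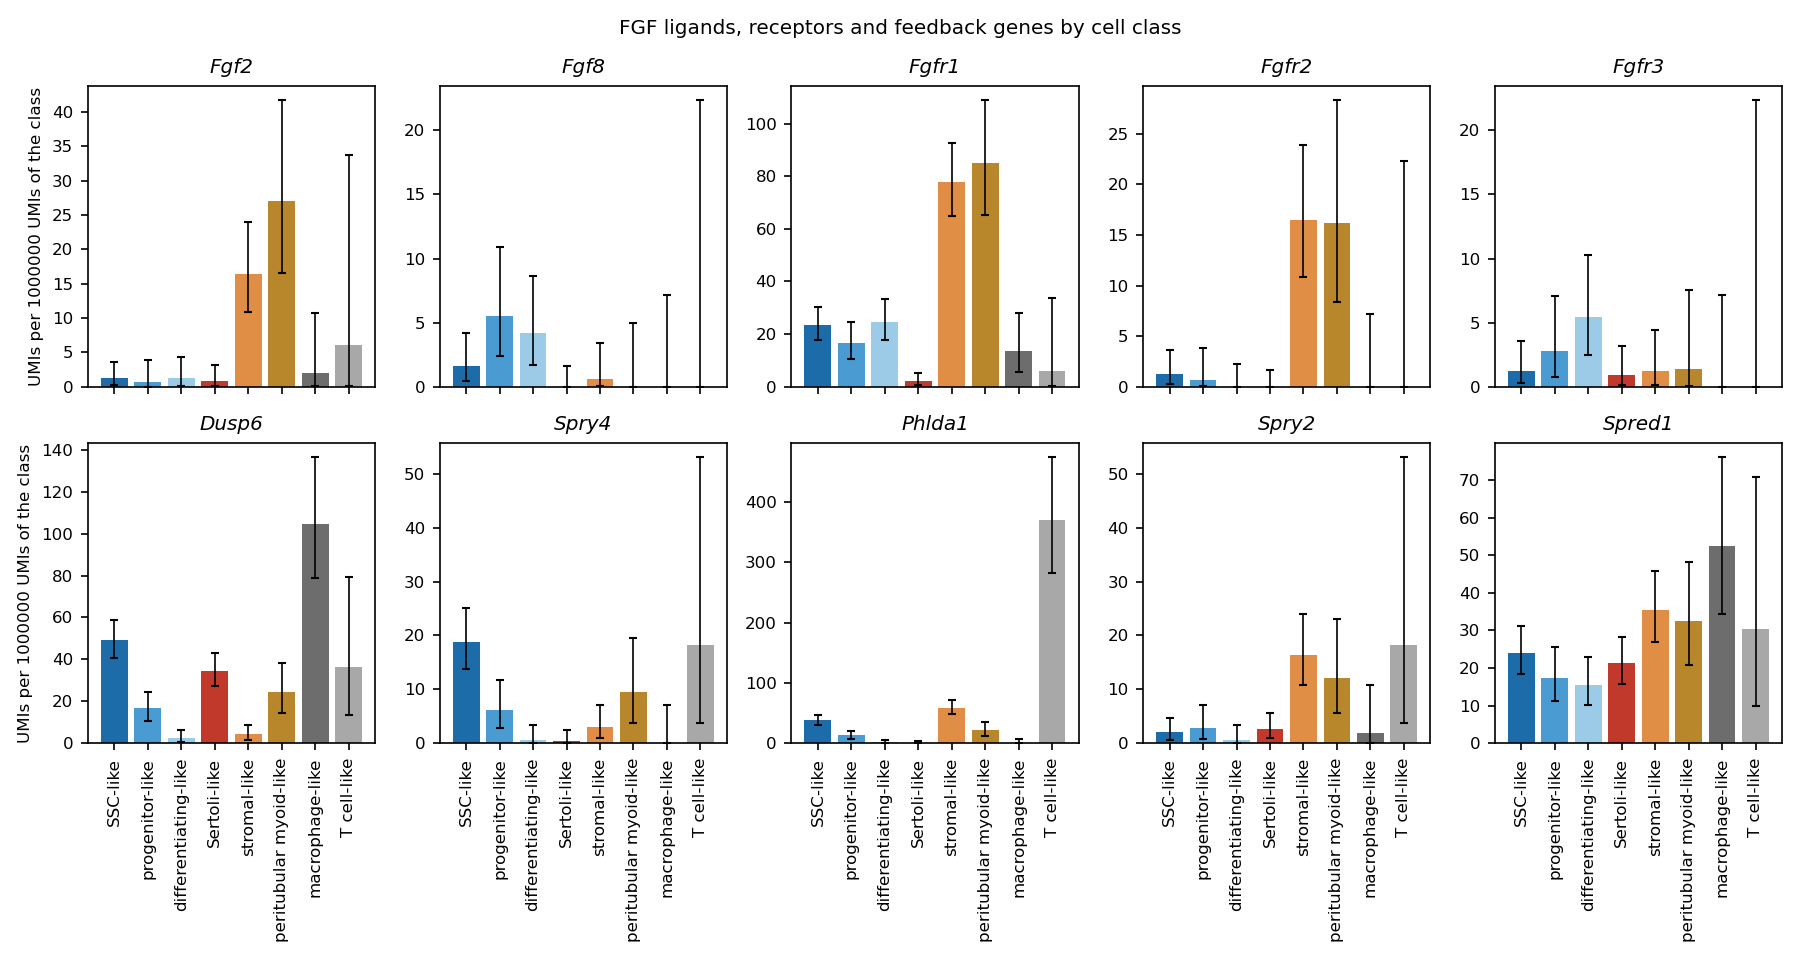
Level of each of the 10 FGF genes in the 8 cell classes, in CPM, with exact Poisson 95% intervals for counting error as error bars and a separate linear scale for each gene. Fgfr1 stood at 78.0 and 85.1 in stromal-like and peritubular myoid-like cells against 2.18 in Sertoli-like cells, Dusp6 stepped down from 49.1 to 16.6 to 2.40 over the germ stages, and the tall Phlda1 bar of 370 belongs to the mixed T cell-like class.

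The feedback genes act at different points of the cascade. Dusp6 encodes a cytoplasmic phosphatase that inactivates ERK, Spry2 and Spry4 encode Sprouty proteins that block signalling between receptor and RAF, and Spred1 encodes a related protein that brings the RAS inhibitor neurofibromin to the membrane. Phlda1 encodes a pleckstrin homology-like domain protein that is induced by growth factors. RefSeq promoter entries were matched for 6 of the 10 genes. ETS factors bind a GGAA core, and Dusp6 differed from Spred1 over the germ stages and from Spry2 between Sertoli-like and stromal-like cells. The 250 bases before the start in the RefSeq entries of Dusp6, Spry2 and Spred1 are therefore shown. They are from GRCm38.p6, written 5′ to 3′ on the strand of the gene, with each GGAA or its complement TTCC in capitals, at chr10:99262981-99263230 (plus strand), chr14:105896820-105897069 (minus strand) and chr2:117120821-117121070 (plus strand).
Dusp6: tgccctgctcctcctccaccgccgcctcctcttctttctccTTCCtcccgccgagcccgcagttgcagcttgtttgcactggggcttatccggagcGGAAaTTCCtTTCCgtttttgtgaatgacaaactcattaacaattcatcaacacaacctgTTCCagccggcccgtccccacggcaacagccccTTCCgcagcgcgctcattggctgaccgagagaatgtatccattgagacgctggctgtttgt
Spry2: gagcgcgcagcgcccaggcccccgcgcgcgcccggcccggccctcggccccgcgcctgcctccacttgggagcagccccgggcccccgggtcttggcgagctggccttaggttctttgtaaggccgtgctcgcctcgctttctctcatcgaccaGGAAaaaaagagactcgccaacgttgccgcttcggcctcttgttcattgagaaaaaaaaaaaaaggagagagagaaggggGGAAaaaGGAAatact
Spred1: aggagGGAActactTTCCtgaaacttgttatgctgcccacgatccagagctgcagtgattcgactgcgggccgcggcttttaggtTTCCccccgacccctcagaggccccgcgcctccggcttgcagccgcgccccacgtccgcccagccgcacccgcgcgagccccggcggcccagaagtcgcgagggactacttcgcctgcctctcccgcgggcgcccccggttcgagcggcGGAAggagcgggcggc
The core occurred 6 times upstream of Dusp6, where a GGAA and 2 TTCC stand almost side by side, 3 times upstream of Spry2 and 4 times upstream of Spred1. So short a motif is common: it was in 93.4% of 32851 promoters of the same length, with a median of 3 matches, and 91.3% of them had at most 5. The AP-1 element TGANTCA, in 6.75% of promoters, and the CRE TGACGTCA, in 1.55%, were in none of the windows of the 6 matched genes on either strand. A match in such a window is a description of letters and not a measured site. The Dusp6 and Spry2 windows adjoin the gene in the annotation used for positions. The Spred1 window ends at 117121070, before the gene start there at 117121374, so the windows are not alike in position.

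Dusp6, Spry4 and Phlda1 were highest in SSC-like cells among the germ stages and stepped down towards differentiating-like cells. For Dusp6, on chr10:99263231-99267489, SSC-like cells had 49.1 CPM (40.7 to 58.7, 120 UMIs), progenitor-like cells 16.6 CPM (10.6 to 24.7, 24 UMIs) and differentiating-like cells 2.40 CPM (0.655 to 6.16, 4 UMIs). The 3 intervals did not overlap. SSC-like cells were 2.96-fold above progenitor-like cells (log2 ratio 1.56, 0.92 to 2.26) and 20.4-fold above differentiating-like cells (4.35, 2.96 to 6.25).

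Spry4 had fewer UMIs but the same order. SSC-like cells had 18.8 CPM (13.8 to 25.1, 46 UMIs), progenitor-like cells 6.22 CPM (2.85 to 11.8, 9 UMIs) and differentiating-like cells 0.601 CPM (0.0152 to 3.35) from a single UMI. The log2 ratio was 1.60 (0.55 to 2.81) for SSC-like over progenitor-like cells. It was 4.97 (2.42 to 10.30) for SSC-like over differentiating-like cells, whose 47 UMIs together fell short of the minimum of the 2-fold count.

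Phlda1, on chr10:111506286-111508645, stood at 38.0 CPM (30.7 to 46.6, 93 UMIs) in the SSC-like class, 13.1 CPM (7.91 to 20.5, 19 UMIs) in the progenitor-like class and 1.80 CPM (0.372 to 5.27, 3 UMIs) in the differentiating-like class. SSC-like cells were 2.90-fold above progenitor-like cells (log2 ratio 1.53, 0.81 to 2.33) and 21.1-fold above differentiating-like cells (4.40, 2.81 to 6.70). For the step from progenitor-like to differentiating-like cells the log2 ratios were 2.79 (1.25 to 4.77) for Dusp6, 3.37 (0.52 to 8.83) for Spry4 and 2.87 (1.10 to 5.26) for Phlda1, all from fewer than 50 UMIs.

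Spred1 stayed within counting error over the germ stages, and Spry2 had too few UMIs there to be placed. Spred1, on chr2:117121374-117182279, stood at 24.1 CPM (18.4 to 31.1) in the SSC-like class, 17.3 CPM (11.2 to 25.5) in the progenitor-like class and 15.6 CPM (10.2 to 22.9) in the differentiating-like class, and each pair of stages was within counting error. The largest of its ratios, SSC-like over differentiating-like cells, was 0.63 (-0.06 to 1.35). In the 2 differentiating-like clusters Spred1 was at 11.9 CPM (101 cells) and 27.1 CPM (32 cells), a log2 ratio of -1.18 (-2.40 to 0.08). Spry2, on chr14:105891947-105896819, had 5, 4 and 1 UMIs in these stages, at 2.04, 2.77 and 0.601 CPM, and no difference between stages was detectable at this depth. Its log2 ratio for SSC-like over differentiating-like cells, 1.77 (-1.39 to 7.33), had an interval that held the values of both Dusp6 and Spred1.

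Depth fell along the germ stages together with these levels, so the shares of cells were also taken at 5000 UMIs per cell, which left out 2, 7 and 36 cells of the successive stages. Dusp6 was then found in 20 of 110 SSC-like cells (18.2%, interval 11.5 to 26.7%), 5 of 72 progenitor-like cells (6.94%, 2.29 to 15.5%) and 0 of 97 differentiating-like cells (interval up to 3.73%), against 49.1%, 19.0% and 3.01% unthinned. Phlda1 was found in 19.1% (12.2 to 27.7%), 5.56% (1.53 to 13.6%) and 0 of 97 cells, against 42.0%, 19.0% and 2.26% unthinned. Spry4 was found in 10.0%, 1.39% and 1.03%, against 29.5%, 10.1% and 0.752% unthinned. At equal depth the intervals of SSC-like and differentiating-like cells did not overlap for Dusp6 and Phlda1, but they did for Spry4. Those of neighbouring stages overlapped for each of these genes. Overlap of separate intervals does not show that shares are alike, and the single steps were not tested there. For scale, Sertoli-like cells had a Spry4 UMI in 0.392% and a Phlda1 UMI in 1.18% of cells, at a median of 8343 UMIs. Stromal-like cells had a Dusp6 UMI in 3.76% of cells, at a median of 8370.5 UMIs. These low classes were picked from the same data, and background RNA was not measured. The unthinned differentiating-like shares, at a median of 10878 UMIs, lay near these values, and no expression was read from them.

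At least 1 UMI of any of the 5 feedback genes was found, at 5000 UMIs per cell, in 47.3%, 23.6% and 9.28% of the SSC-like, progenitor-like and differentiating-like classes. UMIs of at least 2 of these genes were in 14 of 110 SSC-like cells (12.7%), in 2 of 72 cells of the next stage and in 0 of 97 of the last. An FGF receptor UMI was in 12.7%, 9.72% and 7.22% of the same cells, a narrower range. Within SSC-like cells the feedback genes did not rise and fall together in a way these sparse counts could show: the rank correlation of Dusp6 with Spry4 was 0.168 and that of Fgfr1 with Dusp6 was -0.10, over 110 thinned cells of the same library.

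**Figure D2:**
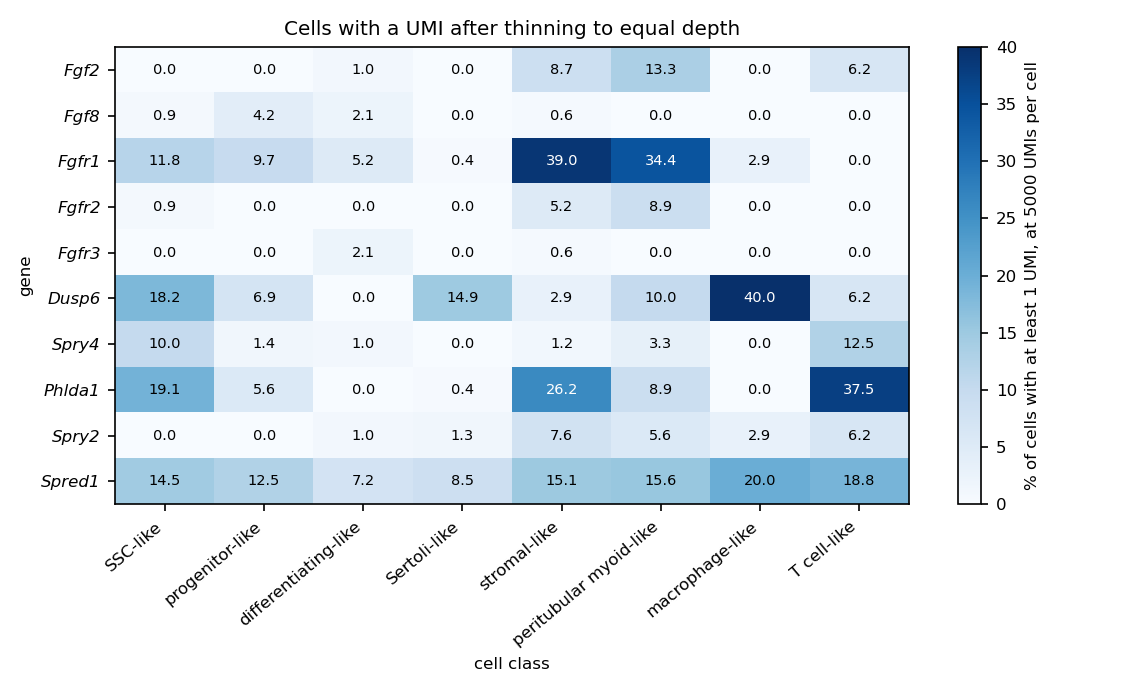
Share of cells with at least 1 UMI of each FGF gene after thinning every cell to 5000 UMIs, by cell class, in percent, with darker blue for a larger share. The row of Fgfr1 is dark in stromal-like (39.0%) and peritubular myoid-like cells (34.4%) alone, and the rows of Dusp6 and Phlda1 fade from SSC-like to differentiating-like cells.

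Counted over the genes with enough UMIs, 3 of 5 FGF genes (Dusp6, Spry4 and Phlda1) were at least 2-fold higher in SSC-like than in progenitor-like cells, where 4.11% of 7025 genes were. Over differentiating-like cells, 2 of 4 (Dusp6 and Phlda1) were at least 2-fold higher, where 6.55% of 7315 genes were. Dusp6 (120 against 4 UMIs), Phlda1 (93 against 3) and Spry4 (46 against 9) reached the minimum of 50 UMIs through their SSC-like UMIs, and a gene as low in SSC-like cells as these were in the other class could not enter, so nothing was read from these counts. Between progenitor-like and differentiating-like cells, 0 of 2 measured FGF genes (Fgfr1 and Spred1) were past 2-fold in either direction, against 15.1% of 6442 genes.

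The rest of the pathway gives the setting of these differences. Of 22 cascade genes, from the adaptors to ERK and its RSK kinases, 15 were measured between SSC-like and differentiating-like cells, none was 2-fold higher and 1, Hras, was lower (log2 ratio -1.16, -1.72 to -0.62). Over all genes, 6.55% of 7315 were higher. Between SSC-like and progenitor-like cells 1 of 15 was higher, Ptpn11, which encodes the phosphatase SHP2 (1.32, 0.70 to 1.98), where 4.11% of 7025 genes were. The median ratios of the measured cascade genes were -0.09 and 0.18 in these comparisons, against -0.09 and 0.07 over all genes. Between progenitor-like and differentiating-like cells Mapk3, which encodes ERK1, was higher (1.10), and Ptpn11 (-1.36) and Hras (-1.08) were lower.

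Of 8 ERK targets, Etv1, Fosl1 and Myc fell short of 50 UMIs between SSC-like and differentiating-like cells, and 3 of the other 5 were higher in SSC-like than in differentiating-like cells: Etv4 (3.13, 2.28 to 4.11), Etv5 (4.53, 3.14 to 6.43), both ETS factor genes, and Ier3 (4.40, 2.48 to 7.48). Etv5 helped to name the class, so its value is a description of the naming. Over all genes, 6.55% of 7315 were higher. Etv4 (154 against 12 UMIs), Etv5 (136 against 4) and Ier3 (62 against 2) reached the minimum through SSC-like cells, so nothing was read from the count. The cyclin gene Ccnd1 (-0.30, -0.55 to -0.04) and the pseudokinase gene Trib1 (0.83, 0.02 to 1.70) were not past 2-fold. Over progenitor-like cells 4 of 5 were higher: Etv4 (1.15, 0.65 to 1.69), Etv5 (1.33, 0.77 to 1.93), Ier3 (1.74, 0.80 to 2.81) and Trib1 (2.48, 1.15 to 4.16). Over all genes, 4.11% of 7025 were. These targets too reached the minimum mainly through SSC-like cells (Ier3 62 against 11 UMIs, Trib1 47 against 5), so nothing was read from this count. Whether the targets differed from the cascade as a group was not tested. Between progenitor-like and differentiating-like cells Etv4 was higher (1.97) and Ccnd1 lower (-1.15).

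Of 12 further feedback genes, 7 were measured between SSC-like and differentiating-like cells and 2 were higher, the Spred1 relative Spred2 (2.03, 1.10 to 3.10) and Dusp5 (2.29, 1.33 to 3.41), which encodes a nuclear ERK phosphatase. Over all genes, 6.55% of 7315 were. Spred2 (66 against 11 UMIs) and Dusp5 (72 against 10) reached the minimum through SSC-like cells, so nothing was read from the count. Spred2 was also higher than in progenitor-like cells (log2 ratio 1.2, interval 0.41 to 2.06), the single gene of 8 measured, where 4.11% of 7025 genes were higher. Dusp9, a relative of Dusp6, was instead at 67.5, 38.7 and 89.0 CPM over the 3 stages, lowest in progenitor-like cells (log2 ratio against differentiating-like cells -1.2). Its log2 ratio for SSC-like over differentiating-like cells, -0.40 (-0.73 to -0.07), had an interval apart from that of Dusp6.

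Among the co-receptors and other receptors, Sdc4, the heparan sulfate proteoglycan syndecan-4, was at 483 CPM in the progenitor-like class and only 31.9 CPM in the differentiating-like class (log2 ratio 3.92, 3.52 to 4.35), and stood at 373 CPM in SSC-like cells (3.55 over differentiating-like cells). The syndecan-1 gene Sdc1 was higher in SSC-like than in progenitor-like cells (1.04), which were below differentiating-like cells (-1.2). Dusp6 and Spry4 were lower in progenitor-like than in SSC-like cells, as Sdc1 was, whereas Sdc4 was not. The GDNF receptor genes Gfra1 (4.58, 3.20 to 6.48) and Ret (5.38, 3.81 to 7.67) were higher in SSC-like than in differentiating-like cells, while over progenitor-like cells Gfra1 gave 0.74 (0.26 to 1.23) and Ret 0.17 (-0.19 to 0.54). Progenitor-like over differentiating-like cells gave 3.85 for Gfra1 and 5.20 for Ret.

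Immediate early genes, which respond to ERK as well as to tissue dissociation, summed to less in germ than in somatic classes. The 10 listed genes, among them Fos and Jun, summed to 236, 176 and 95 CPM over the 3 germ stages, against 721 to 3143 CPM in the somatic classes. Single genes did not all follow this sum in every class. Over the same stages Egr1 stood at 83.0, 69.8 and 9.02 CPM. Its level was 32.9 CPM in the macrophage-like class and 24.2 CPM, from 4 UMIs, in the T cell-like class. In the remaining somatic classes Egr1 ran from 142 to 375 CPM. Between germ and somatic cells 9 of 9 measured were past 2-fold in either direction, where 50.7% of 11027 genes were, and all 9 were lower in germ cells. Their log2 ratios ran from -6.90 (Fosb) to -1.69 (Egr1), with Fos, Jun, Junb, Ier2, Dusp1, Btg2 and Zfp36 between. Fosb (6 against 693 UMIs) and Junb (44 against 859) reached the minimum only through somatic cells, so nothing was read from this count. Between SSC-like and differentiating-like cells 2 of 5 measured were higher, Egr1 (3.20, 2.45 to 4.07) and Ier2 (1.26, 0.65 to 1.91), where 6.55% of 7315 genes were. Both reached the minimum through SSC-like cells (203 against 15 and 102 against 29 UMIs), so nothing was read from the count. Between SSC-like and progenitor-like cells 0 of 5 were higher, against 4.11% of 7025 genes, while Egr1 was higher in progenitor-like than in differentiating-like cells (2.95). The part of the immediate early genes in the feedback gene levels was not tested.

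**Figure D3:**
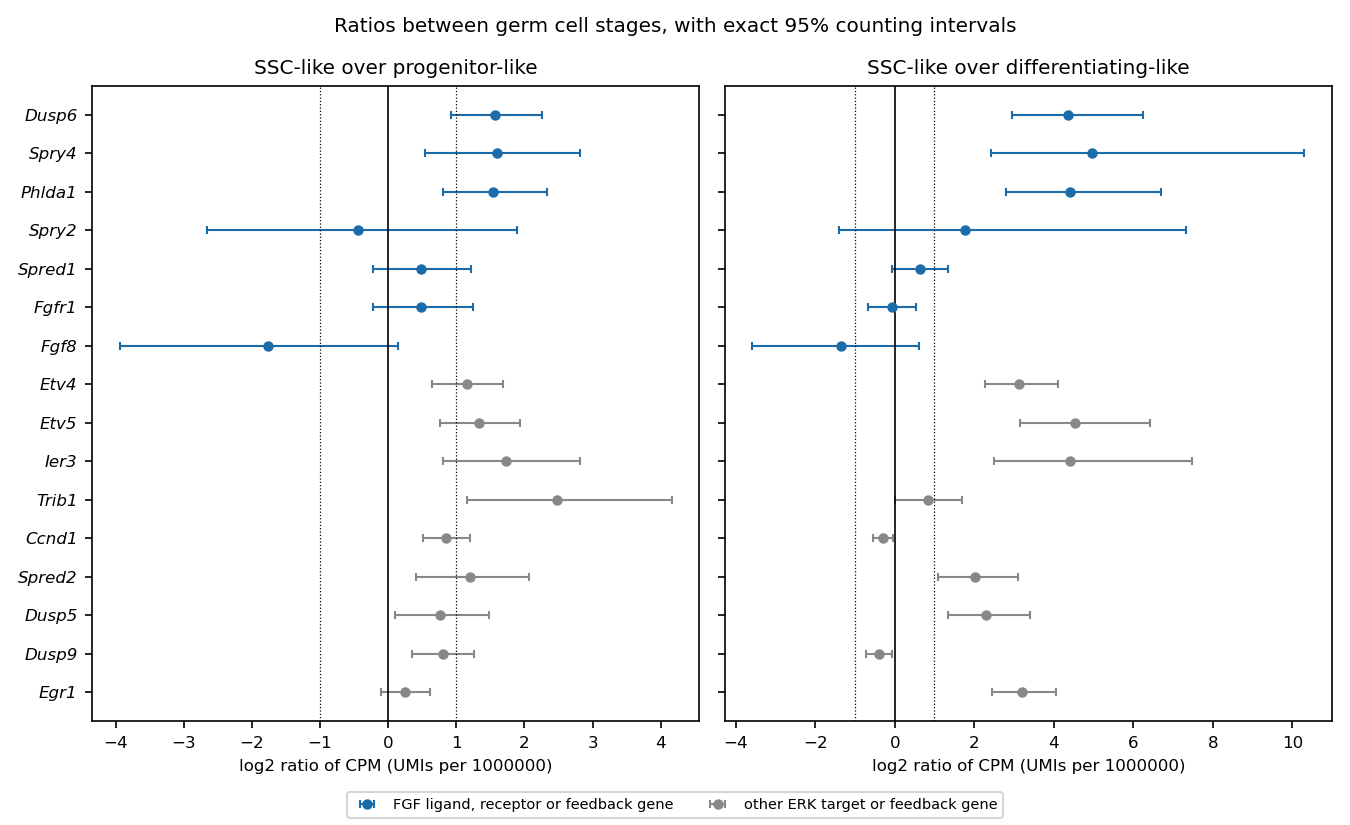
Log2 ratios of CPM for SSC-like over progenitor-like cells and SSC-like over differentiating-like cells, with exact 95% counting intervals, for 7 FGF genes in blue and 9 other ERK targets or feedback genes in grey, with dotted lines at 2-fold. Dusp6, Spry4 and Phlda1 lie to the right of both dotted lines in each panel, whereas Fgfr1 and Spred1 lie between the lines.

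Across somatic cells the feedback genes differed from each other. Dusp6 was highest in macrophage-like cells at 105 CPM (78.6 to 137), with a UMI in 24 of 35 cells, and was at 34.4 CPM (27.2 to 42.9) in the Sertoli-like class, 4.26 CPM (1.71 to 8.79) in stromal-like and 24.3 CPM (14.4 to 38.4) in peritubular myoid-like cells. The mixed T cell-like class had 36.4 CPM (13.3 to 79.1) from 6 UMIs. With 10 principal components, 1 of these was in the 13 cells that stayed T cell-like. A further 3 were in the 12 cells that joined the peritubular myoid-like cells, and 2 in the 1 cell that joined the stromal-like cells. Sertoli-like over stromal-like cells gave a log2 ratio of 3.01 (1.90 to 4.37), an 8.07-fold difference in the direction opposite to that of Fgfr1. Sertoli-like over peritubular myoid-like cells gave 0.50 (-0.25 to 1.33). In SSC-like cells, Dusp6 was below the macrophage-like level by a log2 ratio of 1.09 (0.60 to 1.57) and within counting error of the T cell-like level.

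Dusp6 also varied within the Sertoli-like class, which was made of 3 clusters. A cluster of 132 cells had 15.8 CPM (18 UMIs), 1 of 80 cells had 56.1 CPM (40 UMIs) and 1 of 43 cells had 47.1 CPM (21 UMIs). A Dusp6 UMI was in 12.9%, 37.5% and 32.6% of their cells at medians of 8253, 7942 and 10208 UMIs. The first cluster was below the second (log2 ratio -1.82, -2.71 to -0.99) and the third (-1.57, -2.56 to -0.59), and the last 2 were not separated (0.25, -0.54 to 1.09). The summed immediate early genes were 1282, 1612 and 2008 CPM in the same clusters, so they too were lowest in the first, and their part in this difference was not tested.

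Between Sertoli-like and stromal-like cells Phlda1 went the opposite way to Dusp6. It was at 59.1 CPM (47.9 to 72.1) in the stromal-like class and 21.6 CPM (12.4 to 35.1) in the peritubular myoid-like class, at 1.31 CPM (0.269 to 3.82) in Sertoli-like cells and without a UMI in the 35 macrophage-like cells, which allows a share of up to 10.0%. Sertoli-like over stromal-like cells gave a log2 ratio of -5.50 (-7.80 to -3.91). The highest level, 370 CPM (283 to 475), was in the T cell-like class, from 61 UMIs in 11 cells with up to 17 in a cell.

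Most of these UMIs were not in the cells with T cell markers. Of the 61 UMIs, 58 were in 9 of the 12 cells that joined the peritubular myoid-like cells when 10 principal components were used, at 769 CPM (584 to 994), and 3 were in the 13 cells that remained T cell-like, at 37.5 CPM (7.73 to 110). In the first set of cells the 6 myoid markers summed to 5927 CPM, the 6 T cell markers to 13.3 CPM and the 6 endothelial markers to 477 CPM. In the second set the T cell markers summed to 2862 CPM and the myoid markers to 12.5 CPM, with 5 of 6 at 0. The class's 3 Spry4 UMIs were all in the first set and its 3 Spry2 UMIs all in the second. Neither set had an Fgfr1 UMI, while the peritubular myoid-like class stood at 85.1 CPM for Fgfr1. The log2 ratio of Phlda1 for stromal-like over peritubular myoid-like cells was 1.45 (0.68 to 2.31), a 2.73-fold difference, but it was -0.59 with 10 principal components, where these 12 cells counted as peritubular myoid-like.

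**Figure D4:**
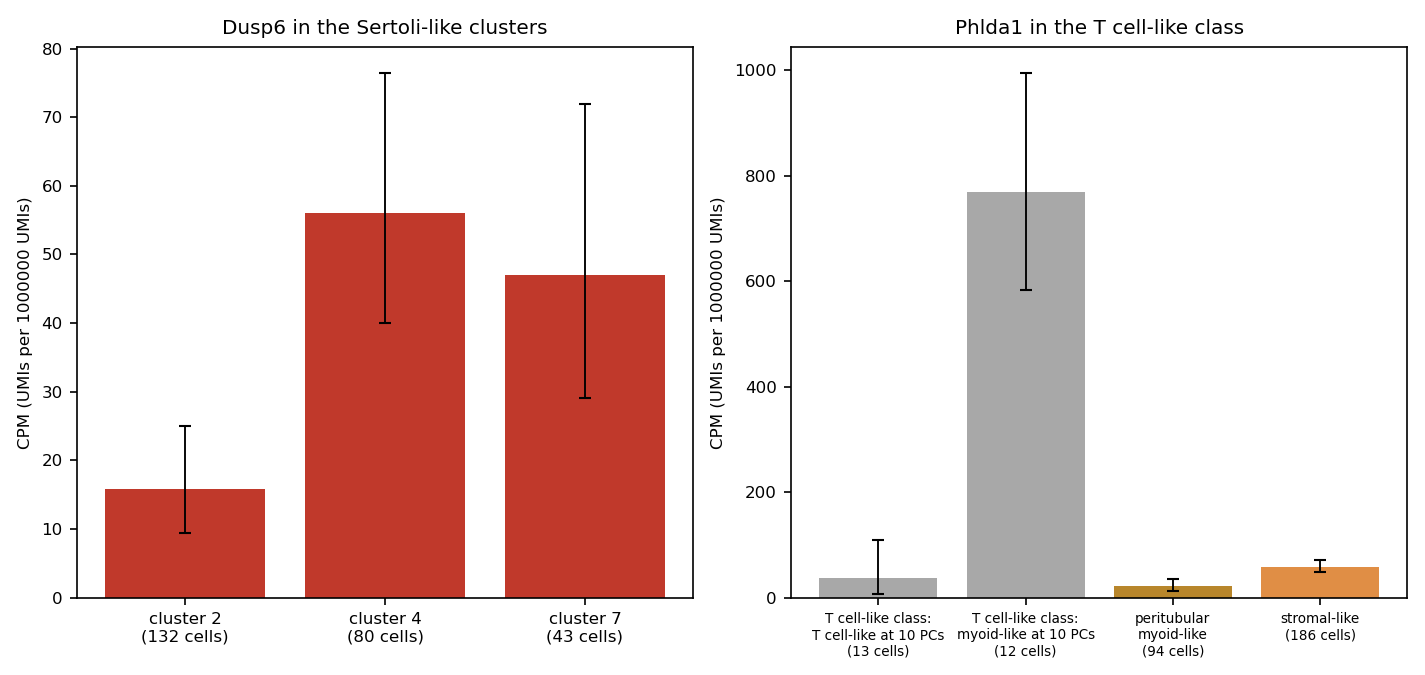
Levels within classes in CPM, with exact Poisson 95% intervals for counting error as error bars, for Dusp6 in the 3 Sertoli-like clusters (left) and for Phlda1 in the cells of the T cell-like class split by their class with 10 principal components (PCs), beside the peritubular myoid-like and stromal-like classes (right). Dusp6 was at 15.8, 56.1 and 47.1, and Phlda1 was at 37.5 in the cells that stayed T cell-like and at 769 in those that joined the myoid-like cells.

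Spry2 and Spry4, which encode close relatives, had log2 ratios of opposite sign between germ and somatic cells. Spry2 was at 16.4 CPM (10.8 to 23.9) in the stromal-like class and 12.2 CPM (5.56 to 23.1) in the peritubular myoid-like class and at 18.2 CPM from 3 UMIs in T cell-like cells. It was at 2.61 CPM in Sertoli-like and 1.94 CPM in macrophage-like cells, and germ over somatic cells gave -2.25 (-3.41 to -1.25). Spry4, highest in SSC-like cells, was at 9.45 CPM (3.80 to 19.5) in peritubular myoid-like cells, 0.436 CPM in the Sertoli-like class and 3.05 CPM in the stromal-like class, at 18.2 CPM from 3 UMIs in T cell-like cells and without a UMI in macrophage-like cells. Germ over somatic cells gave 1.76 (0.93 to 2.66) for Spry4, a 3.38-fold difference that fell to a log2 ratio of 0.13 with a mitochondrial limit of 5% and 0.32 with a count split. Under these settings no cluster was named SSC-like. The 5% limit left 67 germ cells, and the count split gave germ clusters of 63, 41 and 40 cells. The part of this change of cells in the fall was not tested. Of the 56 germ UMIs of Spry4 in the reported classes, 46 were in SSC-like cells. Differentiating-like cells, at 0.601 CPM from 1 UMI (0.0152 to 3.35), had an interval below that of the peritubular myoid-like class. They were not separated from the stromal-like class, with a log2 ratio of stromal-like over differentiating-like cells of 2.34 (-0.82 to 7.90).

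Spred1 was the most even of the feedback genes over the classes. Its level ran from 15.6 CPM in differentiating-like cells to 52.3 CPM (34.5 to 76.1) in macrophage-like cells, with 35.3 CPM (26.8 to 45.7) in stromal-like, 32.4 CPM (20.8 to 48.2) in peritubular myoid-like, 30.3 CPM (9.84 to 70.7) in T cell-like and 21.3 CPM (15.8 to 28.2) in Sertoli-like cells. No neighbours in that order were separated by more than counting error, but classes further apart were. The macrophage-like interval lay above that of differentiating-like cells (10.2 to 22.9). Sertoli-like over stromal-like cells gave a log2 ratio of -0.73 (-1.31 to -0.15), and germ over somatic cells -0.62 (-0.98 to -0.26).

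In counts, 3 of 7 measured FGF genes were past 2-fold between germ and somatic cells (Fgf2 and Spry2 lower, Spry4 higher), where 50.7% of 11027 genes were, a share no higher than this background. Between Sertoli-like and stromal-like cells 3 of 4 were (Fgfr1 and Phlda1 lower, Dusp6 higher), against 36.3% of 7587 genes. Between Sertoli-like and peritubular myoid-like cells 1 of 3 was (Fgfr1 lower), against 39.5% of 6717 genes, and between stromal-like and peritubular myoid-like cells 1 of 3 was (Phlda1 higher), against 12.8% of 5082 genes. The genes past 2-fold reached the minimum of 50 UMIs through the class where they were high. In Sertoli-like against stromal-like cells Fgfr1 had 5 against 128 UMIs, Phlda1 3 against 97 and Dusp6 79 against 7. In Sertoli-like against peritubular myoid-like cells Fgfr1 had 5 against 63. Nothing was therefore read from these counts between somatic classes.

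For the 4 FGF genes with at least 200 UMIs, the genes whose levels over the 8 classes were most alike were found by Pearson's r of log2(CPM + 1) over 6526 genes, as a description over 8 points of 1 library that share their depth differences. Fgfr1 was most like Clmp (0.923), Rprml (0.912) and Cpxm1 (0.890). Dusp6 was most like Itgb5 (0.924), Ube2a (0.919) and Ptbp3 (0.912). Phlda1 was most like Cdc37 (0.938), Eif2a (0.935) and Chsy1 (0.908), and Spred1 was most like Rnase4 (0.970), Sepp1 (0.944) and Reep5 (0.941).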

How the data were processed

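Single-cell RNA sequencing was analysed for 1 pooled library. The authors used Cell Ranger 2.1.0 and mm10 (GRCm38), per the submitters' processing notes, and deposited UMI counts per gene and barcode without normalization. Barcodes with fewer than 500 genes, with a mitochondrial share of 10% or more, or called doublets (4 of 970, 0.412%, by the scrublet function of scanpy 1.11.5) were removed, which left 920. They were clustered with Seurat 5.3.0 in R 4.3.3 on mean.var.plot variable genes (896, with 2 FGF genes left out, and 899 for germ cells), 14 principal components and resolution 0.5, and the germ cells were clustered again. Each cluster took the name of the marker list with the highest mean excess of log-normalized expression over the other cells clustered. It needed 3 or more markers in 10% of cells, and no other class with more markers among the top 10 genes. A much shallower cluster with none of its own markers among these genes was left unnamed. For germ clusters all germ marker lists counted as their own, a rule set with the names already known. For FGF genes with at least 200 UMIs the 3 most alike genes are named. The FGF genes, lists and comparisons were chosen with earlier results of these data known. Every FGF gene is named, and listed pathway genes are named where past 2-fold with at least 50 UMIs in a comparison, except for a result not reported here; others named for contrast (Ccnd1, Trib1, Dusp9, Gfra1 and Ret in some comparisons) were chosen after their values were seen. Gene positions are from the GENCODE annotation of GRCm38. Intervals were tested on simulated counts. The 20 alternatives cover filters, clustering, naming, denominators, weights, thinning, UMI minimums and a count split, and 1 was added after seeing the data.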

Additional observations from a re-analysis of the deposited data

How the results depend on the processing

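No paired analysis was possible because a single library was measured. Of 1038 log2 ratios of FGF genes recomputed under the alternatives, 992 stayed within the counting interval of the reported value. The sign changed in 54, which were 48 values of ratios whose reported interval held 0 and 6 of ratios whose interval did not. Some alternatives, such as keeping the FGF genes among the variable genes or keeping called doublets, gave germ clusters of unchanged sizes. Many reported intervals were wide, and ratios with a class at 0 UMIs were left out. Staying within the interval was thus partly built in, and 992 of 1038 is not a measure of robustness. The number of FGF genes past 2-fold depended on depth and on the UMI minimum. Thinning to 5000 UMIs gave 0 for SSC-like over progenitor-like cells and 0 over differentiating-like cells (reported as 3 and 2), 1 for germ over somatic cells (3) and 0 for Sertoli-like over peritubular myoid-like cells (1). A minimum of 20 UMIs gave 2 for progenitor-like over differentiating-like cells (0), 6 for germ over somatic cells, 6 for Sertoli-like over stromal-like cells (3), 2 for Sertoli-like over peritubular myoid-like and 2 for stromal-like over peritubular myoid-like cells (1). A minimum of 100 UMIs gave 1 for SSC-like over differentiating-like, 0 for germ over somatic and 0 for Sertoli-like over peritubular myoid-like cells. Fewer UMIs or another minimum alter these counts by construction. With equal weight per cell the germ over somatic count was 5. With vst variable genes the counts were 1 for germ over somatic, 1 for Sertoli-like over stromal-like, 2 for Sertoli-like over peritubular myoid-like and 0 for stromal-like over peritubular myoid-like cells. A mitochondrial limit of 5% gave 1, 2 and 0 for the last 3 comparisons, and 10 principal components gave 2 and 0 for the last 2. The count split (clusters from 1 random part of the UMIs, levels from the other) gave 0 and 0 there, and with the hemoglobin-rich barcode also left out it gave 0 for germ over somatic and 0 for Sertoli-like over peritubular myoid-like cells. The Phlda1 ratio of stromal-like over peritubular myoid-like cells changed sign to -0.12 with a mitochondrial limit of 5%, -0.18 with vst, -0.59 with 10 principal components and -0.53 in the count split. Spry4 and Phlda1 over progenitor-like and differentiating-like cells were both -0.41 in the count split, for which the cause was not tested. With a mitochondrial limit of 5%, resolution 0.3, the count split alone or the shorter SSC marker list, no cluster was named SSC-like, so its ratios could not be given. Where they could, the log2 ratio between SSC-like and progenitor-like cells ran from 1.08 to 3.44 for Dusp6, 1.43 to 2.85 for Spry4 and 1.43 to 2.52 for Phlda1, and that between SSC-like and differentiating-like cells from 3.58 to 5.08, 3.28 to 5.16 and 3.34 to 5.28. A single library of pooled mice limits every value to counting error, and genes with fewer than about 50 UMIs in a comparison are not resolved.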

Other observations

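Other genes of the FGF system, outside the 10 described, also divided the somatic classes. Fgf13, a member of the intracellular FGF-homologous group that is not secreted, had 62 UMIs in Sertoli-like cells (27.0 CPM) against 3 in stromal-like cells (log2 ratio 3.89, 2.27 to 6.20). It had none in peritubular myoid-like cells, a 6.67-fold difference when a floor of 3 UMIs is put in their place. Sdc4, which encodes syndecan-4, was at 379 CPM in Sertoli-like cells and at 20.7 CPM in stromal-like cells (4.19, 3.70 to 4.73). In peritubular myoid-like cells the feedback gene Spry1 was at 112 CPM against 20.1 CPM in stromal-like cells (log2 ratio of stromal-like over peritubular myoid-like cells -2.48, -3.11 to -1.88), and the ETS factor gene Etv1 was at 212 against 14.6 CPM (-3.86, -4.54 to -3.23). The same cells had the highest sum of the 10 immediate early genes, 3143 CPM against 1234 in stromal-like cells, and their part in the Spry1 and Etv1 levels was not tested. The syndecan genes Sdc2 (-1.04) and Sdc3 (-1.10) and the immediate early genes Junb (-2.06), Egr1 (-1.40), Ier2 (-1.27), Dusp1 (-1.82), Btg2 (-3.04) and Zfp36 (-1.89) were also lower in stromal-like than in peritubular myoid-like cells.

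Sertoli-like cells were past 2-fold above stromal-like cells in 5 of 18 measured cascade genes and below them in none. Over all genes, 36.3% were past 2-fold either way, and the cascade share was no higher than this background. Genes as a whole leaned the same way. The median log2 ratio was 0.59 for the measured cascade genes and 0.39 over all genes. The largest of the 5 was the RSK kinase gene Rps6ka2, at 58.4 against 1.83 CPM (134 against 3 UMIs, log2 ratio 5.0, 3.42 to 7.29). The RAS activator genes Sos1 (1.82) and Sos2 (1.92), Ptpn11 (1.17) and Rps6ka3 (1.55) were the other 4. Rps6ka2 reached the UMI minimum through Sertoli-like cells, so nothing was read from the count of 5 of 18. Cbl, which encodes a ubiquitin ligase of receptors (1.25), and Fosb (1.58) were also higher, and Zfp36 (-1.48) was lower. Over peritubular myoid-like cells, Sertoli-like cells were higher in the cascade genes Grb2 (1.34), Sos1 (2.26), Sos2 (2.89), Rps6ka2 (5.43) and Rps6ka3 (2.05), and in Sdc4 (4.33), the neurofibromin gene Nf1 (1.67) and Fosb (1.21). They were lower there in Spry1 (-7.01), Etv1 (-4.68), Junb (-2.52), Ier2 (-1.65), Dusp1 (-2.46), Btg2 (-2.52) and Zfp36 (-3.38).

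Between germ and somatic cells all 22 cascade genes were measured and 8 were past 2-fold, against 50.7% of all genes. Nras (log2 ratio 1.0) and Rps6ka1 (1.16) were higher in germ cells. Gab1 (-1.56), Sos2 (-2.23), Araf (-1.01), Braf (-1.03), Mapk3 (-1.14) and Rps6ka2 (-3.58) were lower. Feedback genes that were higher were Dusp5 (2.88), Dusp7 (1.03), Dusp9 (4.89) and Il17rd (1.29), while Spry1 (-1.52) was lower. Of the ERK targets, Etv4 (5.32), Etv5 (1.13) and Ccnd1 (2.99) were higher and Etv1 (-6.80) and Myc (-4.20) lower. The GDNF receptor genes Gfra1 (5.97) and Ret (6.5) were higher. Fgf11, another intracellular FGF-homologous gene (-2.44, from 9 against 47 UMIs), and the heparan sulfate proteoglycan genes Sdc2 (-1.71), Sdc3 (-3.88) and Gpc1 (-2.94) were lower.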
